A study of Mus musculus with 21 samples.

Results

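The genes described here encode the protein components named for the mitochondrial ribosome. They were chosen by symbol alone, as the rows of both count tables whose symbol is Mrpl or Mrps followed by a number and at most 1 letter, which gave 78 of 40838 genes. By textbook assignment 51 belong to the large subunit and 26 to the small subunit. The remaining gene, Mrps36, keeps a ribosomal name although its product is known as a component of the 2-oxoglutarate dehydrogenase complex.

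Mitochondria translate a small set of messages from their own DNA, most of which encode core subunits of the respiratory chain. The ribosome that does this takes its RNAs from mitochondrial DNA and its proteins from nuclear genes, whose products are made in the cytosol and imported. Many of these proteins descend from bacterial ribosomal proteins, and others are specific to mitochondria and coat or extend the particle. Embryonic stem cells (ESCs) are pluripotent cells whose mitochondrial metabolism is known to differ between culture states.

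Poly(A)-selected RNA of mouse ESCs was sequenced in 21 libraries of 8 groups. All cells spent 48 h in a mixed basal medium that held 0.2 mM pyruvate and, as serum, 10% of a dialyzed lot. SL is taken here to mean serum plus the cytokine LIF, and SL2i the same with small molecules added that block MEK and GSK3B. In the first count table, 3 libraries came from cells carrying an empty vector and 3 from cells carrying LbNOX, a water-forming NADH oxidase of bacterial origin, both in SL. The other table held the line chr8A, read as the control, and SLC16A1 clones 1 and 2, with 3 libraries of each in SL and 2 of each in SL2i. SLC16A1 is the gene of the monocarboxylate transporter MCT1. The labels used here do not say how the clones were altered, what chr8A stands for or whether replicates were separate cultures, and each SLC16A1 group is 1 clone. The p-values therefore set differences between groups against the spread between libraries only, and that spread may be technical.

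Library totals ran from 16521594 to 30008895 counts in the LbNOX table, from 15802072 to 30145771 for SL in the SLC16A1 table and from 9784408 to 10908368 for SL2i, so depth moved with the medium. Slc16a1 stood at 195 to 201 CPM (counts scaled to library size) in chr8A in SL, at 162 to 182 in clone 1 and at 91.4 to 96.5 in clone 2. Of 8 ESC markers none was at 0, and their summed level was 3406 to 4109 CPM in SL and 6440 to 7051 CPM in SL2i. Fibroblast markers (9 genes) summed to 33.7 to 62.8 CPM in SL and 10.8 to 13.6 CPM in SL2i, where Col3a1, Dcn and Postn were at 0. Epiblast exit markers (6 genes, T at 0 in every group) were at 942 to 1605 CPM in SL and 162 to 262 CPM in SL2i, and primitive endoderm markers (7 genes) at 17.3 to 26.0 and 4.44 to 9.60 CPM. The sums hide markers that moved the other way. In SL2i against SL, at an adjusted p under 0.05, 7 of 8 ESC markers rose and 1 fell in chr8A. Of 7 tested fibroblast markers 1 rose and 6 fell there, and both lists split alike in both clones. Of 5 tested primitive endoderm markers 4 fell in each line, and 1 rose in clone 2. Of all genes tested 36.1% rose and 36.8% fell in chr8A. In such bulk samples a change in the mix of cell states and a change of RNA per cell cannot be told apart, and the part of these lists in the results below was not tested.

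Upstream sequence was examined because genes for mitochondrial proteins are known to be bound by NRF1, by the ETS factor GABP and by YY1. RefSeq (GRCm38.p6, an older build than that of the counts) gave the 250 bases before the start of 69 of the 78 members. The word GCATGCGC of the NRF1 motif, on either strand, was in 11.6% of the members' windows (8 of 69) and in 3.98% of 13030 windows of tested genes. CCGGAAGT, an ETS word, was in 13.0% (9 members) and 5.17%, and AAGATGGC, a YY1 word, in 5.80% (4 members) and 2.01%. The E-box CACGTG was in 7.25% (5 members) and 8.12%. These shares rest on few members and their differences were not tested. None of these words is contained in another, and a match is a description of letters, not a site. The NRF1 word was in 5 of 35 windows (14.3%) of members that rose in SL2i in all 3 lines. It was in 1 of 4 windows of members that fell in all 3 and in 2 of 30 windows (6.67%) of the others. A link between word and direction was not tested. The 120 bases next to the start are shown for 3 members that moved in different directions with the medium. Mrpl17, which rose, and Mrpl33, which fell, hold the same NRF1 word there. Capitals mark the word found (here the reverse complement of the letters above), and each sequence is read 5′ to 3′ on the gene's strand.
Mrpl17 (chr7:105811088-105811207, minus strand, rose in SL2i): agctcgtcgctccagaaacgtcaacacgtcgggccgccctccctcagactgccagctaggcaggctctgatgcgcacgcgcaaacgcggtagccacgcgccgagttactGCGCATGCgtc
Mrpl33 (chr5:31613831-31613950, plus strand, fell in SL2i): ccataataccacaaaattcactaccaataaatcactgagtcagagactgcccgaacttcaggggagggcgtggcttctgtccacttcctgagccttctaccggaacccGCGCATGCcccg
Mrps26 (chr2:130563637-130563756, plus strand, fell in SL2i, ETS word): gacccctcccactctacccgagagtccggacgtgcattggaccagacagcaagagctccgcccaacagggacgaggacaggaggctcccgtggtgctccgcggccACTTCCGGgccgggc

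All 78 members were transcribed in every library and passed the filter on low counts. Together they took 0.390% to 0.423% of all counts in the SL libraries of the SLC16A1 table, 0.435% to 0.461% in its SL2i libraries and 0.442% to 0.480% in the LbNOX table. Levels are compared between genes as CPM per kb of the exon length deposited with the counts. In chr8A in SL the median member stood at 30.7 CPM per kb. The highest was Mrpl42 at 131 ± 5.28 (mean ± SD, n = 3), followed by Mrpl12, the stalk protein that helps recruit translation factors, at 118 ± 3.04. Mrpl52 (92.4 ± 4.25), Mrpl13 (85.4 ± 0.812) and Mrpl33 (74.6 ± 1.59) came next, all of the large subunit.

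The lowest members were Mrpl23 at 1.60 ± 0.124 CPM per kb, Mrpl48 at 2.77 ± 0.124, Mrpl14 at 2.77 ± 0.297, Mrps33 at 5.25 ± 0.478 and Mrps25 at 6.01 ± 0.117. The highest level was thus 81.8-fold the lowest, although the proteins are built into 1 particle. Exon length and shared sequence bear on these values: the deposited length was 7525 bases for Mrpl14 and 412 for Mrpl52, and 14.3% of the 30-base words of Mrpl23 also occur in another gene. A read that fits several genes may be lost or misplaced by a counter, and the treatment of such reads is unknown here. Of 77 neighbouring pairs in the order of levels, 17 were separated by more than their SDs. Mrpl23 was lowest in all 8 groups, and Mrpl42 was highest in every group except the empty vector, where Mrpl12 was. Large-subunit members had a median of 30.8 CPM per kb and small-subunit members 32.2.

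**Figure D1:**
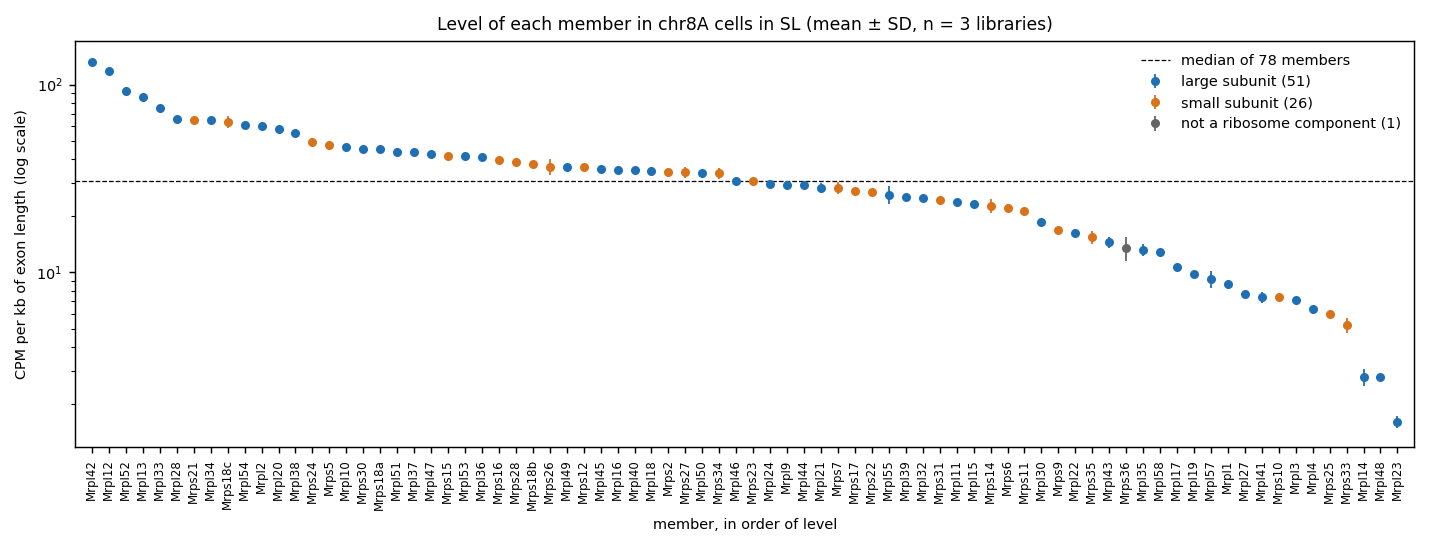
Level of each of the 78 members in chr8A cells in SL, in CPM per kb of exon length on a log axis, as mean ± SD of 3 libraries and colored by subunit. Most members lie near the median of 30.7, with Mrpl42 and Mrpl12 above 100 and Mrpl14, Mrpl48 and Mrpl23 at the bottom.

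The comparison of SL2i with SL in chr8A asks how the members change when the 2 inhibitors are added. In chr8A 51 of 78 members rose and 9 fell at an adjusted p under 0.05, against 36.1% of all 17178 genes tested that rose and 36.8% that fell. The members' median log2 fold change was 0.25, and that of all genes tested was 0.00. Small-subunit proteins of bacterial families rose in 13 of 16 cases and fell in 1 (median 0.32), those specific to mitochondria rose in 5 of 10 and fell in 3 (median 0.15), and large-subunit members rose in 32 of 51 and fell in 5 (median 0.20). Most changes were small: over all members the log2 fold changes ran from -0.42 to 1.71.

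The same comparison in the clones used other libraries. In clone 1, 42 members rose and 14 fell (35.9% and 37.1% of all genes tested), with a median of 0.18. In clone 2, 43 rose and 13 fell (35.8% and 37.2%), with a median of 0.17. In all 3 lines 37 members rose, which is 47.4% of the members beside 28.7% of all genes tested, and 5 fell, which is 6.41% beside 30.4%. The 5 were Mrpl16, Mrpl33, Mrpl34, Mrps26 and Mrps35. Mrpl11, Mrpl23, Mrpl24, Mrpl44, Mrpl57 and Mrps21 passed in no line, and Mrps24 and Mrpl50 passed in opposite directions in different lines.

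Mrps2, a small-subunit protein with a bacterial counterpart, had 83.6, 88.6 and 80.0 CPM in chr8A in SL and 161 and 168 CPM in SL2i. In clone 1 it had 86.2, 84.4 and 87.3 CPM against 147 and 147, and in clone 2 86.9, 90.4 and 87.5 against 144 and 148. Every SL2i library lay above every SL library. The log2 fold change was 0.97 ± 0.043 (SE) in chr8A, 0.77 ± 0.045 in clone 1 and 0.73 ± 0.043 in clone 2, with adjusted p of 1.6e-39, 2.2e-30 and 1.6e-29. Of its 30-base words, 0.204% occur in another gene.

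Mrps5, whose bacterial relative lies where the message enters, had 67.4, 68.4 and 68.8 CPM in chr8A in SL and 140 and 141 CPM in SL2i. Its 2 chr8A libraries in SL2i stood above the 4 clone libraries, which held 106, 106, 112 and 110 CPM. The log2 fold change was 1.04 ± 0.045 in chr8A, 0.68 ± 0.049 in clone 1 and 0.66 ± 0.046 in clone 2. Of its words 10.6% are shared, mostly with Gm13328.

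The 2 members that rose at least 2-fold in all 3 lines were both low in SL. Mrps33, a small-subunit protein specific to mitochondria, had 6.05, 5.05 and 5.53 CPM in chr8A in SL and 18.7 and 17.4 in SL2i (log2 fold change 1.71 ± 0.126). In the clones it rose by 1.74 ± 0.130 and 2.00 ± 0.125, with no overlap between the media. Mrps36 had 9.44, 8.39 and 11.1 CPM in chr8A in SL and 20.1 and 25.1 in SL2i, a log2 fold change of 1.22 ± 0.113. Mrps33 shares 15.8% of its words with other genes, mainly Gm5776, and Mrps36 21.1%, mainly the pseudogene Mrps36-ps1, so both values are uncertain.

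Among other large risers, Mrpl17 had 70.6, 71.7 and 71.6 CPM in chr8A in SL and 126 and 114 in SL2i, and its log2 fold changes were 0.75 ± 0.048, 0.68 ± 0.049 and 0.59 ± 0.048 in chr8A, clone 1 and clone 2. Only 0.209% of its words are shared. Mrps12, the protein of the decoding center, rose by 0.70 ± 0.064, 0.52 ± 0.070 and 0.52 ± 0.067 in the same order. Mrps16 rose by 0.67 ± 0.064, 0.75 ± 0.065 and 0.57 ± 0.063, and Mrps15 by 0.64 ± 0.062, 0.68 ± 0.062 and 0.71 ± 0.059. Mrpl43 rose by 0.84 ± 0.087 in chr8A, but 39.0% of its words are shared, chiefly with the overlapping gene Twnk, which encodes the mitochondrial DNA helicase. Twnk itself stood at -0.08 ± 0.056 (adjusted p = 0.17) in chr8A.

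Mrpl33, a small bacterial-type protein of the large subunit, moved against the majority. It had 35.4, 34.0 and 34.8 CPM in chr8A in SL and 28.0 and 26.4 in SL2i, and the clones held 34.4 to 38.5 CPM in SL and at most 26.4 in SL2i. The media did not overlap in any line, and the log2 fold changes were -0.35 ± 0.077, -0.49 ± 0.081 and -0.52 ± 0.077. Mrps26 had 38.7, 35.1 and 31.8 CPM in chr8A in SL and 26.0 and 26.6 in SL2i, with log2 fold changes of -0.42 ± 0.081 in chr8A, -0.22 ± 0.079 in clone 1 and -0.17 ± 0.078 in clone 2. Mrpl34 fell by 0.34 ± 0.070, 0.20 ± 0.072 and 0.22 ± 0.069 on the log2 scale, and Mrpl16, a protein near the peptidyl transferase center, by 0.22 ± 0.071, 0.21 ± 0.070 and 0.20 ± 0.068. In clone 1 the calls of Mrpl16, Mrpl34 and Mrps26 were lost without SL2i clone 1 replicate 2, and that of Mrps26 also without SL clone 1 replicate 1. At equal depth the calls of Mrpl16 and Mrps35 in clone 1 and of Mrpl34 in clone 2 were lost, so these 3 did not pass as lower in all 3 lines there. For Mrpl16 and Mrps26 in clone 2 and for Mrps35 in chr8A the alternatives are not given here.

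**Figure D2:**
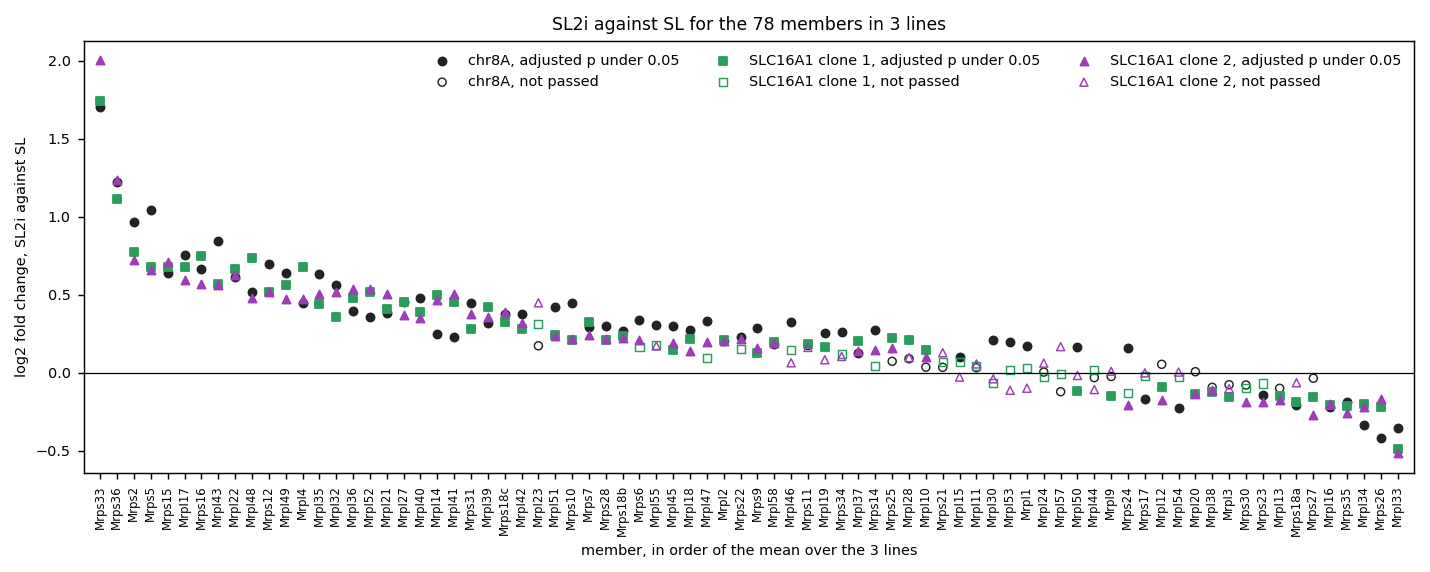
Log2 fold change of SL2i against SL for each of the 78 members in chr8A, clone 1 and clone 2, ordered by the mean over the 3 lines, with filled symbols at an adjusted p under 0.05. Mrps33 and Mrps36 stand highest, most members lie between 0 and 0.8, and Mrpl33 stands lowest.

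Members with related roles did not all move alike. Of the stalk genes, Mrpl10 passed as higher in clones 1 and 2 (0.15 ± 0.049 and 0.10 ± 0.048) and Mrpl12 as lower in both (-0.10 ± 0.045 and -0.17 ± 0.044), and Mrpl11 passed in no line (0.03 to 0.06). Near the peptidyl transferase center Mrpl2 rose by 0.20 to 0.21, Mrpl16 fell, and Mrpl3 passed as lower in clone 1 (-0.15 ± 0.061). Mrpl45, which lies at the exit of the nascent chain, rose by 0.30 ± 0.042, 0.15 ± 0.043 and 0.19 ± 0.041, and Mrpl58, a relative of release factors, by 0.18 ± 0.072, 0.20 ± 0.074 and 0.19 ± 0.070. The 3 related genes of the Mrps18 family differed in direction: Mrps18b and Mrps18c rose in all 3 lines (0.27 ± 0.055 and 0.38 ± 0.072 in chr8A), and Mrps18a fell in chr8A and clone 1 (-0.21 ± 0.071 and -0.19 ± 0.073). Mrps18b and Mrps18c share 31.7% and 35.2% of their words with other genes, and Mrps18a 0.217%.

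Shared sequence and depth were measured beside these counts. In chr8A 36.1% of all genes tested rose and 36.8% fell. There, of the 35 members under 5% shared words 22 rose and 8 fell (median 0.18). Of the 30 with 5% to 20%, 18 rose and 1 fell (median 0.26), and of the 13 at 20% or more 11 rose and none fell (median 0.27). A difference between these classes was not tested. With every library thinned to the same total, 48 members rose and 7 fell in chr8A, 40 and 4 in clone 1, and 38 and 5 in clone 2, beside 33.7% and 34.7%, 34.1% and 34.7%, and 33.3% and 34.9% of all genes tested there. Without the count filter the splits were 42 and 13, 33 and 16, and 31 and 16, beside 19.1% and 22.1%, 18.8% and 22.2%, and 19.1% and 22.6% of all genes. Those shares are over 30788 genes, including the low-count genes that the filter removes, whereas all members pass it. They are therefore not a like background for the members.

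Other genes of mitochondrial gene expression were followed in the same fits, where 36.1%, 35.9% and 35.8% of all genes tested rose and 36.8%, 37.1% and 37.2% fell. In chr8A, clone 1 and clone 2, mitoribosome proteins under other symbols (5 genes) rose in 4, 3 and 3 cases and fell in 0, 2 and 2. Gadd45gip1 rose by 0.57 ± 0.067 in chr8A, with 40.5% of its words shared. Assembly and rRNA modification factors (26 genes) rose in 12, 9 and 9 cases and fell in 4, 2 and 4: the rRNA methyltransferase gene Mrm2 rose by 0.97 ± 0.117 in chr8A, and the GTPase gene Gtpbp10 fell by 0.74 ± 0.077. Translation factors (17 genes) rose in 7, 7 and 8 cases and fell in 3, 5 and 5. Tufm, the elongation factor gene, went from 14.8 to 57.9 CPM in chr8A (1.97 ± 0.076) but shares 58.5% of its words, and the recycling factor gene Mrrf fell by 0.64 ± 0.101.

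Against the same shares of all genes, 36.1% that rose and 36.8% that fell in chr8A, mitochondrial aminoacyl-tRNA synthetases (17 genes) rose in 7, 8 and 7 cases and fell in 5, 5 and 6, which is near the background. Genes of mitochondrial DNA transcription and maintenance (13 genes) rose in 4, 3 and 2 cases and fell in 3, 5 and 5. Among them Tfam, which packages mitochondrial DNA, fell by 0.16 ± 0.047, 0.21 ± 0.049 and 0.29 ± 0.047. Of 11 tested regulators of nuclear genes for mitochondria, 4, 4 and 4 rose and 4, 4 and 6 fell. Gabpa rose by 0.73 ± 0.037 in chr8A, Nrf1 stood at 0.06 ± 0.050 (adjusted p = 0.29), and Myc, an activator of growth genes, fell by 2.75 ± 0.092.

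Nuclear respiratory chain subunits (74 genes) rose in 64, 63 and 62 cases and fell in 0, 1 and 2, with medians of 0.45, 0.38 and 0.39. Cytosolic ribosomal proteins (87 genes) rose in 83, 80 and 79 and fell in 3, 3 and 3, with medians of 1.92, 1.66 and 1.73. Their log2 fold changes in chr8A ran from -4.91 to 5.06. Of all genes tested 36.1%, 35.9% and 35.8% rose and 36.8%, 37.1% and 37.2% fell. The members' own medians of 0.25, 0.18 and 0.17 stood below those of both lists. Shared words are not given here for either list, so reads misplaced between genes may bear on their values. No test of the difference between lists was made.

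The clones were compared with chr8A in SL, where the question is what differs between these lines in the same medium. In clone 1, 13 members were higher and 1 lower (8.83% and 7.77% of all genes tested), with a median of 0.06. In clone 2, 28 were higher and 1 lower (14.3% and 12.6%), with a median of 0.08. The 2 comparisons share the chr8A libraries. All 3 libraries of each clone were compared with those 3, and no member changed by more than 0.28 on the log2 scale among those that passed.

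Mrpl19, a large-subunit protein of a bacterial family, had 48.0, 50.5 and 49.7 CPM in chr8A, 55.5, 54.3 and 53.2 in clone 1 and 59.5, 62.5 and 57.5 in clone 2. The groups did not overlap. The log2 difference from chr8A was 0.14 ± 0.047 in clone 1 (adjusted p = 0.033) and 0.28 ± 0.045 in clone 2 (adjusted p = 4.7e-07). Of its words 38.0% are shared, mainly with Gcfc2. Mrpl20 stood at 65.8, 68.1 and 63.0 CPM in chr8A, 73.4, 80.7 and 71.3 in clone 1 and 76.3, 75.3 and 78.7 in clone 2, differences of 0.19 ± 0.044 and 0.23 ± 0.042.

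Mrpl16 was higher by 0.20 ± 0.052 in clone 1 and 0.15 ± 0.050 in clone 2, and Mrps31 by 0.19 ± 0.053 and 0.20 ± 0.051. Mrps34 was higher by 0.16 ± 0.058 and 0.22 ± 0.055 and Mrps22 by 0.18 ± 0.058 and 0.16 ± 0.056. In clone 2 Mrpl46 (0.22 ± 0.055) and Mrpl35 (0.22 ± 0.047) were higher too. Of the 10 small-subunit members specific to mitochondria 4 were higher in clone 1 and 6 in clone 2, and of the 16 of bacterial families 0 and 2. Of all genes tested 8.83% were higher in clone 1 and 14.3% in clone 2. The difference between classes was not tested. Mrps34 shares 73.9% of its words with other genes, mainly Mapk8ip3. The lower members were Mrpl14 in clone 1 (-0.26 ± 0.075) and Mrpl2 in clone 2 (-0.15 ± 0.041).

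Many of the clone 1 calls were lost under other settings. In clone 1 DESeq2 left 6 higher and 0 lower, beside 8.32% and 5.91% of all genes with an adjusted p, a share of members near the background. Equal depth left 5 and 1 in clone 1 (4.03% and 3.80% of all genes) and 16 and 1 in clone 2 (7.33% and 7.29%). The clone 1 count was 6 and 1 without chr8A replicate 3, 8 and 1 without clone 1 replicate 1, 6 and 0 without its replicate 2 and 6 and 1 without its replicate 3, while 5.90% to 6.70% of all genes were higher and 5.84% to 6.51% lower. Of the named members, 0 of 6 in clone 1 and 2 of 6 in clone 2 (Mrpl19 and Mrpl20) passed under all 13 alternatives.

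In SL2i members of the clones passed in both directions against chr8A, each time in a smaller share than that of all genes tested. In clone 1, 5 members were higher and 7 lower (10.4% and 12.1% of all genes tested), and in clone 2, 7 were higher and 6 lower (9.74% and 10.8%). The medians were 0.02 and 0.03. Mrps5 was lower by 0.41 ± 0.052 in clone 1 and 0.34 ± 0.051 in clone 2 on the log2 scale, and Mrps2 by 0.16 ± 0.049 and 0.17 ± 0.048.

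Mrps24, a small-subunit protein with a bacterial counterpart, had 58.6 and 53.5 CPM in chr8A in SL2i, 44.8 and 43.8 in clone 1 and 42.1 and 42.2 in clone 2. Its differences were -0.34 ± 0.078 and -0.41 ± 0.078, and the chr8A libraries lay above all 4 clone libraries. It shares 17.0% of its words, mainly with Urgcp. Mrps10 differed by -0.35 ± 0.079 and -0.27 ± 0.078, Mrps12 by -0.25 ± 0.075 and -0.27 ± 0.075, and Mrpl43 by -0.29 ± 0.101 and -0.34 ± 0.101. In the other direction Mrpl39 was higher by 0.18 ± 0.055 and 0.26 ± 0.054, Mrps26 by 0.34 ± 0.098 and 0.26 ± 0.098, and Mrpl21 by 0.30 ± 0.065 in clone 2.

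With 2 libraries a group these counts moved. In clone 1 they were 3 and 4 without either of its SL2i libraries (replicate 1, 7.93% and 8.16% of all genes, or replicate 2, 6.86% and 7.46%). In clone 2 they were 2 and 6 with DESeq2 (9.0% and 10.0% of all genes) and 2 and 4 at equal depth (7.04% and 8.5%). They were 3 and 5 without chr8A replicate 1, 2 and 3 without chr8A replicate 2 and 3 and 3 without clone 2 replicate 2, while 5.94% to 7.54% of all genes were higher and 7.22% to 8.12% lower. Mrps5 and Mrps24 passed in both clones under all 11 alternatives. The clone 1 and clone 2 comparisons share the same 2 chr8A libraries, so they are not independent. Mrps26 in clone 2 lost its call in 7 of the 11 and Mrpl43 in clone 1 in 6.

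**Figure D3:**
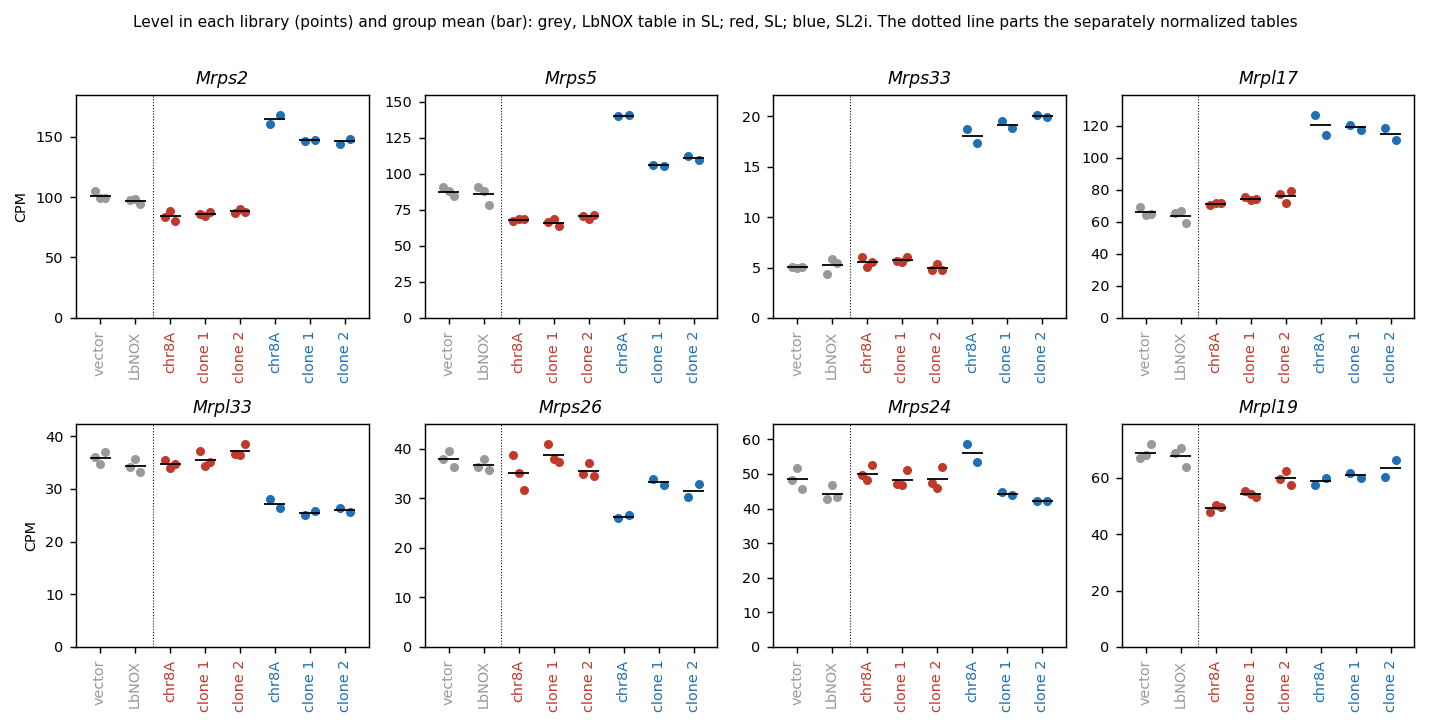
CPM of 8 members in each of the 21 libraries (points) with the group mean (bar), in the LbNOX table (grey), in SL (red) and in SL2i (blue), with axes from 0. Mrps2, Mrps5, Mrps33 and Mrpl17 are higher in all SL2i libraries, Mrpl33 is lower in them, and Mrps5 and Mrps24 are higher in chr8A than in the clones in SL2i.

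Whether the response to SL2i differed between the clones and chr8A was tested as an interaction, the SL2i to SL log2 fold change averaged over both clones minus that in chr8A. No member was higher and 9 were lower, against 9.55% and 11.6% of all genes tested, and the members' median was -0.05 against -0.01 over all genes. The differences were -0.37 ± 0.056 for Mrps5 (adjusted p = 5.2e-08), -0.33 ± 0.079 for Mrps24 (adjusted p = 0.00083) and -0.26 ± 0.080 for Mrpl30 (adjusted p = 0.01). Mrps10 and Mrpl50 both stood at -0.23 and Mrps2 at -0.22 ± 0.053. Mrpl12, Mrpl51 and Mrps27 followed at -0.19, -0.18 and -0.18. Mrps24 passed as higher in SL2i in chr8A (0.16 ± 0.063) and as lower in clone 2 (-0.20 ± 0.067). The call in clone 2 was lost without SL clone 2 replicate 3 and at equal depth.

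Of these 9 members, Mrps2 and Mrps5 passed under all 21 alternatives, and without SL2i chr8A replicate 1 the count fell to 3. At that setting 6.58% of all genes were higher and 7.61% lower. Mrps24 lost its interaction call without that library and at equal depth. Mrps27 lost its call in 16 of the 21, Mrps10 in 10 and Mrpl51 in 8. With all libraries, cytosolic ribosomal proteins had 47 of 87 genes lower and 1 higher in the interaction, beside 11.6% and 9.55% of all genes tested.

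Clones 1 and 2 were compared with each other to see how far 2 clones of the same name differ. In SL 1 member, Mrpl39, was higher in clone 2 and none was lower (1.69% and 2.71% of all genes tested). Mrpl39 had 79.3, 79.7 and 82.0 CPM in clone 1 and 88.6, 90.6 and 85.5 in clone 2, a difference of 0.14 ± 0.039 (adjusted p = 0.024) whose call was lost in 8 of 13 alternatives. In SL2i edgeR called 0 members (0.0873% and 0.0699% of all genes tested were higher and lower), 4 of 78 had an unadjusted p under 0.05, as did 8.23% of all genes, and DESeq2 called 0. The log2 differences in SL2i reached 0.20 at most in size.

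LbNOX was compared with the empty vector in SL to see the effect of oxidizing NADH. No member passed in either direction, beside 0.0062% of 16119 genes tested that were higher and 0.031% that were lower. Of the 78 members 2, Mrps31 (0.15 ± 0.062) and Mrps11 (0.14 ± 0.064), had an unadjusted p under 0.05, as did 3.75% of all genes, and DESeq2 called 0. The median log2 fold change was 0.01 and the members ran from -0.18 (Mrpl23) to 0.18 (Mrpl41).

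The median standard error of a member was 0.062 on the log2 scale in that comparison, so a small change in a single member would not have been detectable. Mrps2 had 105, 99.4 and 99.4 CPM with the vector and 97.2, 98.4 and 94.1 with LbNOX, a difference of -0.07 ± 0.047. Mrpl17 and Mrpl33 differed by -0.06 ± 0.060 and -0.07 ± 0.062. Vector replicate 2 and LbNOX replicate 3 stood apart from the other 4 libraries on the first principal component, and without both of them the count was still 0.

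**Figure D4:**
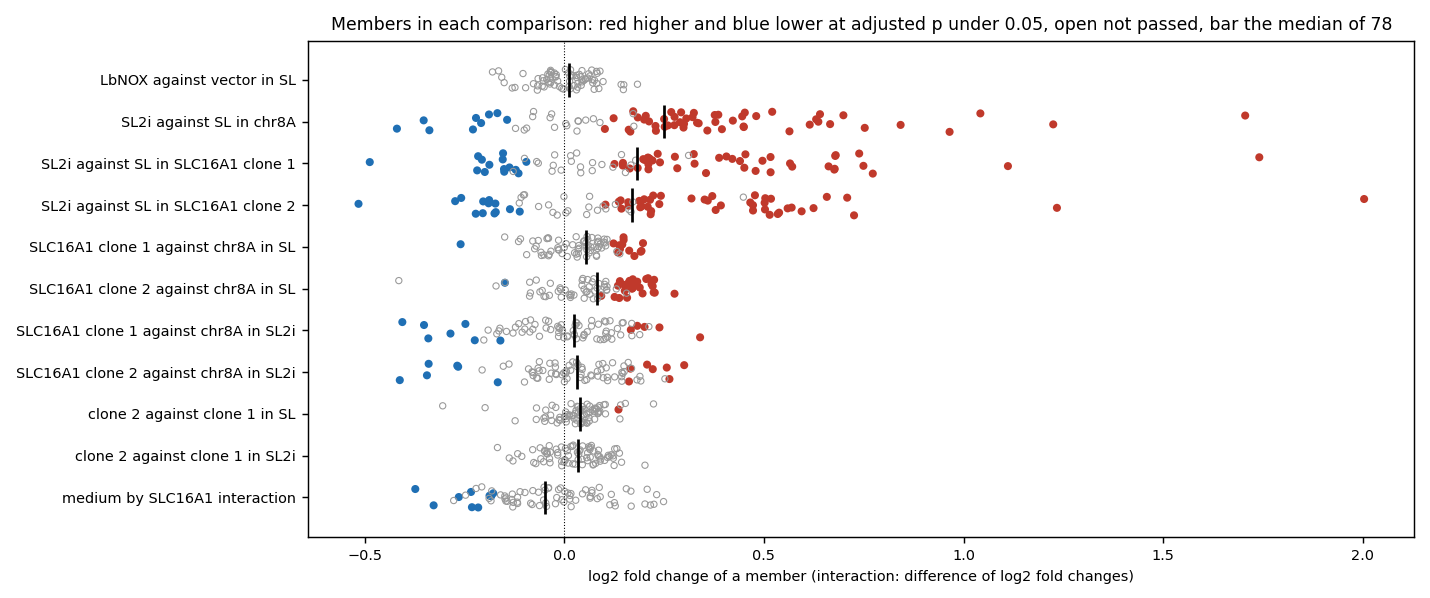
Log2 fold change of each of the 78 members (points) in the 11 comparisons, with red for higher and blue for lower at an adjusted p under 0.05, open points for members that did not pass and a bar for the median. The 3 comparisons of SL2i with SL have the widest spread and medians of 0.25, 0.18 and 0.17, and the LbNOX comparison has no filled point.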

How the data were processed

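The authors deposited 2 tables of read counts per gene with gene lengths. Per the submitters' processing notes DRAGEN 3.10, featureCounts of Subread and GRCm39 were used; no source used here gives the strand setting. Per the labels, 500 ng of RNA (RIN 9.3 to 10) gave stranded poly(A) libraries with 8 PCR cycles. Each table was normalized separately (TMM) after edgeR's filterByExpr filter, and tested with edgeR 4.0.16 quasi-likelihood fits in R 4.3.3 over all groups of the table, with Benjamini-Hochberg adjustment over all genes tested and a threshold of 0.05. CPM are TMM-scaled. Alternatives were RLE factors, other filters, DESeq2 1.42.0, a replicate block, the groups compared alone, and each library left out; equal depth and leaving out 2 LbNOX-table libraries were added after seeing the data. Shared words are 30-base words of GENCODE M21 transcripts found in another gene. The fit was run on simulated counts in which few genes changed. That run does not probe normalization where most genes change, as in SL2i against SL. Members and lists were chosen with earlier results of these data known. Members named were drawn, per comparison, from the 5 largest called rises and falls with at least 3 log2 CPM and no overlap between groups. Others came from any 2-fold change, the 5 largest interactions, landmark members by role and the 5 highest and lowest levels. Mrpl54 and Mrpl37 met this rule and are not described. Some members, such as Mrpl48 and Mrps25, are described for only part of the comparisons where they met it. Mrpl17, Mrpl24, Mrpl41, Mrpl44, Mrpl51, Mrpl57, Mrps11 and Mrps21 and the genes named in the other lists were chosen after their values were seen. No paired fit is the main one, because replicate numbers did not pair the libraries.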

Additional observations from a re-analysis of the deposited data

Results flagged for a closer look

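The response to SL2i differed between the clones and chr8A, by a test of the difference itself, for 9 members, all with a smaller or more negative change in the clones. The difference of log2 fold changes was -0.374 for Mrps5, -0.328 for Mrps24, -0.264 for Mrpl30, -0.234 for Mrps10, -0.232 for Mrpl50, -0.216 for Mrps2, -0.188 for Mrpl12, -0.183 for Mrpl51 and -0.178 for Mrps27. The share of all genes tested that passed as lower in the same test was 11.6%, and 9 of 78 members is close to it. All 9 rest on 2 chr8A libraries in SL2i, and without SL2i chr8A replicate 1 the count was 3. Of 21 alternatives the call was lost in 16 for Mrps27, 10 for Mrps10, 8 for Mrpl51, 2 each for Mrpl12, Mrpl30 and Mrps24, 1 for Mrpl50 and 0 for Mrps2 and Mrps5.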

How the results depend on the processing

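Under every alternative run, more members rose than fell in SL2i in all 3 lines, and LbNOX had no called member. Without the count filter the median log2 fold change of SL2i against SL was 0.19 in chr8A, 0.12 in clone 1 and 0.10 in clone 2; in clone 1 it was 0.17 with RLE factors, with DESeq2 and at equal depth. With a library left out it ran from 0.22 to 0.27, 0.15 to 0.18 and 0.12 to 0.18 in the 3 lines. Members called in clone 1 against chr8A in SL were 6 with DESeq2 and 6 at equal depth, and 6 to 12 with a library left out. In clone 2 they were 17 at equal depth (median 0.10), and leaving out a library gave medians of 0.0701 to 0.0907. In SL2i clone 1 had 7 to 10 and clone 2 5 to 9 with a library left out, and clone 2 had 8 with DESeq2 and 6 at equal depth, its median running from -0.0022 to 0.0576. Clone 2 against clone 1 in SL had 0 without the count filter, with DESeq2 and at equal depth, 3 with only those groups and 0 to 1 with a library left out; its median was 0.0293 with RLE factors, 0.0299 with DESeq2, 0.0289 at equal depth and 0.0245 to 0.043 with a library left out, and in SL2i it ran from -0.0121 to 0.0621. The interaction had 3 to 11 called and a median of -0.0557 to -0.0102 with a library left out. The cause was not tested. At equal depth 8 members were called for the interaction and 55, 44 and 43 for the medium in chr8A, clone 1 and clone 2. Same-numbered libraries of different groups did not deviate together (r from -0.159 to 0.127 over 3 pairs and -0.041 to 0.054 over 33), and with a replicate block 59, 54 and 54 members were called for the medium in chr8A, clone 1 and clone 2, 14 and 30 for clones 1 and 2 in SL, 14 and 14 in SL2i, 10 for the interaction and 0 for LbNOX.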
